A study of Mus musculus with 2 samples.

Results

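MHC class II molecules are pairs of an alpha and a beta chain on the cell surface that show peptides from engulfed proteins to CD4+ T cells. The 8 genes described here are H2-Aa, H2-Ab1 and H2-Eb1 (chains of the classical molecules), H2-DMa, H2-DMb1 and H2-DMb2 (chains of the peptide exchange factor), Cd74 (the invariant chain) and Ciita (the master regulator). They were chosen by gene symbol, and all 8 were found among the 49315 genes of the deposited table.

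RNA was sequenced from cells labelled as macrophages of mouse dorsal root ganglia, which hold the cell bodies of sensory neurons next to the spinal cord, in 1 library after normoxia and 1 library after chronic intermittent hypoxia. In the hypoxia group, chamber oxygen was lowered from 21% to 8% and restored in cycles of 6 min, 10 per hour, for 8 h daily over 14 days. The normoxia group had sham treatment with room air at 21% in the same kind of chamber, and both groups were studied about 18 h after the last exposure. The sources used here give neither the strain, age, sex and number of the mice nor how cells were isolated. The code of the hypoxia column matched its label in the first letter only, and its assignment rests on that letter. With 1 library per group, no difference has a replicate check, and intervals cover counting error only.

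The normoxia library held 2171348 counts over 4640 genes and the hypoxia library 145056 over 2050 genes, with 1158 genes counted in both. Reads of the same gene were far from independent. Genes with at least 10 counts in 1 library and 0 in the other had a median of 229 counts in normoxia and 39 in hypoxia, taken here as an estimate of reads per starting RNA molecule, which puts the hypoxia library at about 3719 molecules. Defining macrophage genes did not bear out the label of the hypoxia library. Of 15 macrophage markers 12 were counted in normoxia and 2 in hypoxia, and Adgre1, Csf1r and Cd68 had 0 counts in hypoxia. Many genes were lost there: of the 4215 genes with at least 50 counts over both libraries, 68.4% had 0 in hypoxia. Among the 12 macrophage markers with that minimum, 10 had 0. Their share of all counts had a ratio, hypoxia over normoxia, of 0.0624 (0.0025 to 0.327 on estimated molecules). In normoxia the 15 macrophage markers held 0.508% of counts, beside 9.77% for erythroid and 1.83% for neutrophil markers.

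In antigen-presenting cells the class II alpha and beta chains assemble in the endoplasmic reticulum with the invariant chain, which blocks the groove and steers the complex to endosomes. Cathepsins trim the invariant chain there, and the exchange factor DM swaps the remaining fragment for a peptide. Transcription of the class II chain, DM and invariant chain genes depends on Ciita, a co-activator that binds no DNA itself. It docks on RFX, CREB and NF-Y factors at the X and Y boxes of their promoters. B cells and dendritic cells carry class II constitutively, and macrophages raise it on interferon gamma.

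The stretches with both boxes are shown because these boxes are where Ciita is known to act, although not every class II window held them. RefSeq windows (GRCm38.p6, 250 bases before to 50 bases after a transcription start) matched 5 of the 8 genes, namely H2-Aa, H2-Eb1, H2-DMa, H2-DMb1 and H2-DMb2. The stretches below run 5′ to 3′ on the strand of the gene. Capitals mark an X-like box or a CRE (the CREB element) first and a Y box (ATTGG, the reverse complement of CCAAT) second.
H2-Aa, chr17:34287852-34287912, minus strand: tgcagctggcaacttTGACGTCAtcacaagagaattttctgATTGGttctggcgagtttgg
H2-Eb1, chr17:34305763-34305827, plus strand: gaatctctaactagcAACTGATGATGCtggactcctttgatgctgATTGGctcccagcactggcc
H2-DMb2, chr17:34145113-34145178, plus strand: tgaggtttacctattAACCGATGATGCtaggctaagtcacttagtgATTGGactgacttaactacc

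The X-like box searched was the first run of capitals in the H2-Eb1 line with any base allowed at the fourth letter, a spelling chosen after these windows were read, so its presence in them is a description. On either strand, 5 of 32851 windows of the same length held it (0.0152%). The CRE, TGACGTCA, was in 1.79% of windows and the Y box in 37.4%. An X-like box or CRE followed on the same strand by a Y box at 10 to 30 bases was found in 37 windows (0.113%), among them those of H2-Aa, H2-Eb1, H2-DMb1 and H2-DMb2. These are 4 of the 8 class II genes with a window, since H2-Oa, H2-Ob and H2-Eb2, class II chain genes outside the 8 described, also had one, with a Y box but neither an X-like box nor a CRE. The gap was 18 bases in H2-Aa and H2-Eb1 and 19 bases in H2-DMb1 and H2-DMb2, and the boxes did not overlap. H2-Aa held the CRE and no X-like box, and neither of the windows of H2-DMa held an X-like box or a CRE. The H2-DMb1 stretch lies in an annotated first exon and is not printed. It matched the H2-DMb2 stretch at 57 of 66 positions. The X-like boxes of H2-Eb1 and H2-DMb2 differ at the letter left free in the search. H2-Eb1 had 1364 and 66 counts and H2-DMb2 had 0 in both libraries. Whether that letter or any of these boxes bears on the counts was not tested.

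Class II RNA was present in both libraries, and Cd74, H2-Eb1, H2-Ab1 and H2-Aa carried nearly all of it. Together the 8 genes held 8180 counts in normoxia and 301 in hypoxia, which is 0.377% (95% Clopper-Pearson interval 0.369 to 0.385) and 0.208% (0.185 to 0.232) of all counts. The ratio of these shares, hypoxia over normoxia, was 0.551. With TMM scaling (edgeR's trimmed mean of log ratios between libraries), which lowers every ratio by 0.80 on the log2 scale relative to total counts, it was 0.316. On estimated molecules, about 35.7 in normoxia and 7.72 in hypoxia, the interval ran from 0.124 to 0.698 under TMM and from 0.217 to 1.22 under total counts. The class II share was therefore lower by either scaling on reads, while on molecules the interval excluded 1 with TMM and not with total counts. On molecules it also excluded 1 with DESeq2 size factors (0.129 to 0.725), but not with housekeeping scaling (0.237 to 1.33). Without Cd74 the TMM interval on molecules was 0.126 to 1.21, which includes 1. In bulk RNA, fewer cells that carry class II and less class II RNA per cell cannot be told apart.

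**Figure D1:**
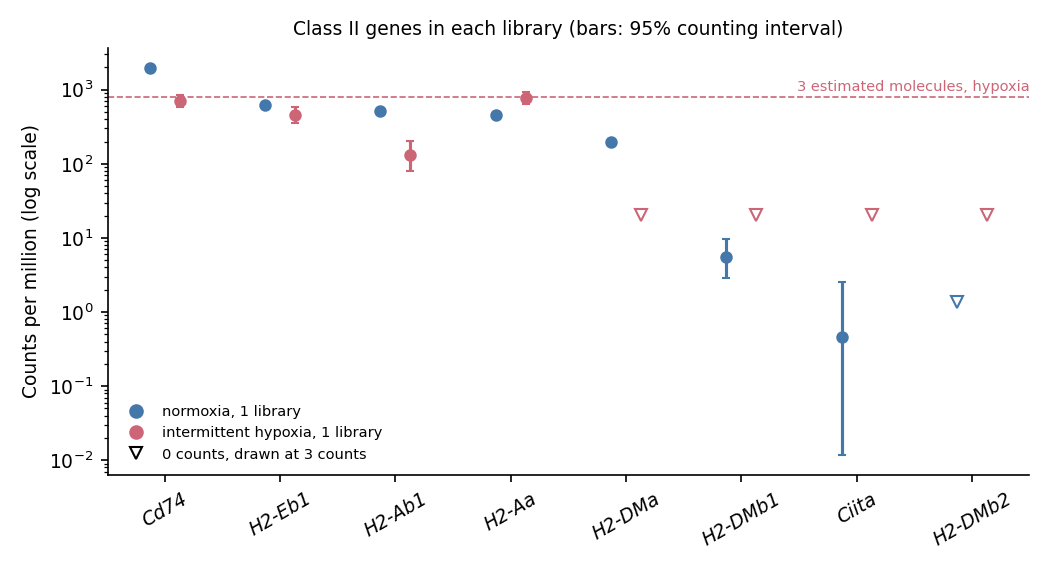
CPM (counts scaled so that each library has the same total; log axis) of the 8 class II genes in the normoxia and the hypoxia library, 1 point per library, with 95% counting intervals. Open triangles mark genes at 0 counts, drawn at 3 counts, and the dashed line is the level of 3 estimated molecules in hypoxia, 807 CPM. Cd74 alone lies above that line in normoxia, and 4 of the 8 genes are at 0 in hypoxia.

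Cd74 encodes the invariant chain (ENSMUSG00000024610, chromosome 18, 60803848 to 60812652 on GRCm38 in GENCODE M21, as are all gene positions here). It had 4247 counts in normoxia and 103 in hypoxia, or 1956 and 710 CPM (counts scaled to an equal total). Its TMM ratio was 0.208 (0.169 to 0.253 on reads), which is 4.81-fold lower in the hypoxia library. With total counts it was 2.75-fold lower. Cd74 was the only class II gene that was lower also on estimated molecules, with an interval of 0.0341 to 0.752 under TMM. That interval reached 1.31 with total counts. The call on molecules was made for 1.3% of the 4215 genes with at least 50 counts, a share not matched for abundance. Cd74 had 18.5 estimated molecules in normoxia, and H2-Eb1, the next class II gene, had 5.96. Genes with few molecules can hardly pass this call. On the TPM scale, which corrects for transcript length, the level of Cd74 ranked 34 of 4640 in normoxia and 162 of 2050 in hypoxia.

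The genes with levels most like Cd74 over the 2 libraries, by Euclidean distance in log2(CPM + 1), were Eno1, Bpgm, Ly6e, Alas2 and Eef2, at distances of 0.20 to 0.38. Eno1, a glycolytic enzyme gene, had 3700 and 105 counts, and Alas2, the haem synthesis gene of red cell precursors, had 5450 and 97. None of the 5 is a class II gene, and a pattern over 2 libraries holds little detail.

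H2-Aa and H2-Ab1 encode the alpha and the beta chain of the classical molecule I-A, and among the 4 genes counted in both libraries their ratios between libraries lay farthest apart. H2-Aa (ENSMUSG00000036594, chromosome 17, 34282744 to 34287823) was counted 994 times in normoxia and 113 times in hypoxia, or 457.8 and 779 CPM. Its TMM ratio was 0.975 (0.795 to 1.19), an interval that includes 1. With total counts the ratio was 1.70 (1.39 to 2.07) and with DESeq2 size factors 1.01, so its direction turns with the scaling. H2-Ab1 (ENSMUSG00000073421, chromosome 17, 34257689 to 34269419) had 1128 and 19 counts, or 519 and 131 CPM. It was 6.92-fold lower with TMM, a ratio of 0.144 (0.0866 to 0.227), and 3.97-fold lower with total counts. On estimated molecules the intervals of both chains include 1, at 0.141 to 5.53 for H2-Aa and 0.000103 to 2.15 for H2-Ab1.

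A pair of genes can be compared within a library with no scaling between libraries. Of the reads of H2-Aa and H2-Ab1 together, H2-Aa held 46.8% in normoxia (44.7 to 49.0) and 85.6% in hypoxia (78.4 to 91.1). Per length, the TPM of H2-Aa was 0.770 times that of H2-Ab1 in normoxia (447 and 581 TPM) and 5.20 times in hypoxia (584 and 112 TPM). The read intervals lie apart, but on estimated molecules they overlap, at 15.6% to 80.1% and 22.3% to 100.0%. H2-Ab1 in hypoxia rests on 0.487 estimated molecules, so an unequal change of the 2 chains was not detectable at this depth of molecules.

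H2-Eb1 encodes the beta chain of the other classical molecule, I-E (ENSMUSG00000060586, chromosome 17, 34305867 to 34316674). Its alpha chain gene is defective in many laboratory strains, and in the table that gene, listed as H2-Ea-ps, had 0 counts in both libraries. H2-Eb1 had 1364 counts in normoxia and 66 in hypoxia, or 628 and 455 CPM. The TMM ratio was 0.415 (0.319 to 0.531), 2.41-fold lower, and with total counts it was 0.724 (0.557 to 0.928), which misses the 2-fold rule. On molecules the TMM interval was 0.0312 to 2.53. An antisense gene, Gm20513, overlaps H2-Eb1 and had 0 counts in both libraries.

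**Figure D2:**
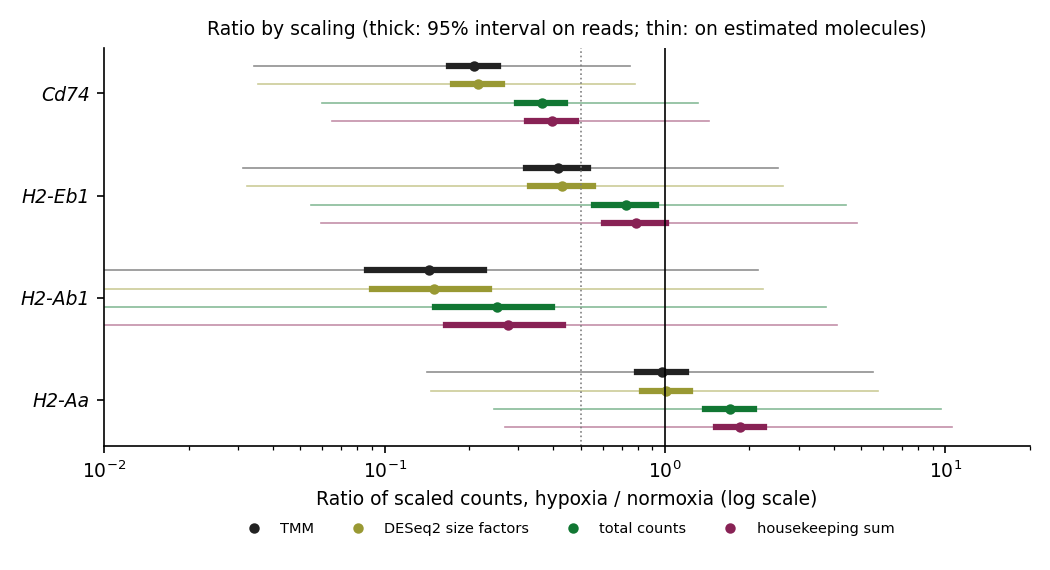
Ratio of scaled counts, hypoxia over normoxia (log axis), for the 4 class II genes counted in both libraries under 4 scalings. Points are ratios, thick lines 95% intervals on reads and thin lines 95% intervals on estimated molecules, those of H2-Ab1 running off the left edge; the dotted line is 2-fold lower. Cd74 and H2-Ab1 lie below 1 in all 4 scalings, whereas H2-Aa runs from 0.975 to 1.86.

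The peptide exchange chain genes had 0 counts in hypoxia, and in normoxia the alpha chain gene was well above the beta chain genes. H2-DMa (ENSMUSG00000037649, chromosome 17, 34119541 to 34139101) encodes the alpha chain of DM and was counted 434 times in normoxia (199.9 CPM) and 0 times in hypoxia. A count of 0 in hypoxia allows up to 3 counts, or 20.7 CPM, against which H2-DMa was at least 16.9-fold lower with TMM and at least 9.66-fold lower with total counts. On estimated molecules it held 1.90 in normoxia, and 3 molecules in hypoxia would be 807 CPM, so its absence is within what the hypoxia library allows. Of 1044 genes with 300 to 600 counts in normoxia, 25% were counted in hypoxia. H2-DMa overlaps Brd2, which is on the other strand and had 410 and 0 counts; no source used here states whether counting used strand.

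H2-DMb1 and H2-DMb2 are near-identical neighbours that both encode a DM beta chain. H2-DMb1 (ENSMUSG00000079547, chromosome 17, 34153072 to 34160230) was counted 12 times in normoxia and 0 times in hypoxia, and H2-DMb2 (ENSMUSG00000037548, chromosome 17, 34143307 to 34151555) had 0 in both. Of the distinct 50-base words in the H2-DMb1 transcripts, 22.7% also occur in those of H2-DMb2, and of the 100-base words 11.3%. Reads from such stretches cannot be assigned to either gene, so both values are uncertain. In normoxia the alpha chain gene thus stood at 223 TPM and the beta chain genes at 6.81 and 0 TPM. Ciita (ENSMUSG00000022504, chromosome 16, 10480059 to 10528418) was counted 1 time in normoxia and 0 times in hypoxia. No fold is given for these 3 genes, whose levels in both libraries are at or under the limit of 3 counts in hypoxia.

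Of the 8 genes, 5 reached the minimum of 50 counts over both libraries. By the rule of a 2-fold difference with a read interval excluding 1, 4 were lower in the hypoxia library (Cd74, H2-Ab1, H2-Eb1 and H2-DMa), none was higher and H2-Aa met neither with TMM. With total counts H2-Eb1 no longer passed and 3 were lower. DESeq2 size factors gave 4 and housekeeping scaling 3. On estimated molecules Cd74 alone passed. Over all 4215 genes with that minimum, 75.7% were lower and 11.9% higher with TMM (71.5% and 16.1% with total counts). The lower ones were 75.5% with DESeq2 size factors and 70.5% with housekeeping scaling. On molecules 1.3% were lower and 0.19% higher. Of the 4215 genes 68.4% had 0 counts in hypoxia. The count of lower class II genes on reads is thus close to the share of all genes. Their median log2 ratio was −2.26, against −7.51 for all measured genes, most of which were at 0 in hypoxia. Taking each 0 as 3 counts gave medians of −2.27 and −2.75. With TMM, a gene that reached the minimum through the normoxia library alone, as H2-DMa did, could only be called lower.

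Being counted in both libraries was more common among abundant genes. The 4 genes counted in both had 994 to 4247 counts in normoxia, and of all 334 genes in that range 65.9% were counted in hypoxia. Among the 1108 genes with the minimum that were counted in both, 27.9% were lower and 24.9% higher with TMM (15.1% and 41.1% with total counts), and the median log2 ratio was −0.11. Against that median H2-Ab1 lay at −2.78, Cd74 at −2.26, H2-Eb1 at −1.27 and H2-Aa at −0.04. Of these 1108 genes, 7.58% had a lower ratio than H2-Ab1, 11.7% than Cd74, 23.0% than H2-Eb1 and 52.2% than H2-Aa. With total counts that median was 0.69, since a scaling shifts every log2 ratio by the same amount and leaves the order of genes as it is.

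**Figure D3:**
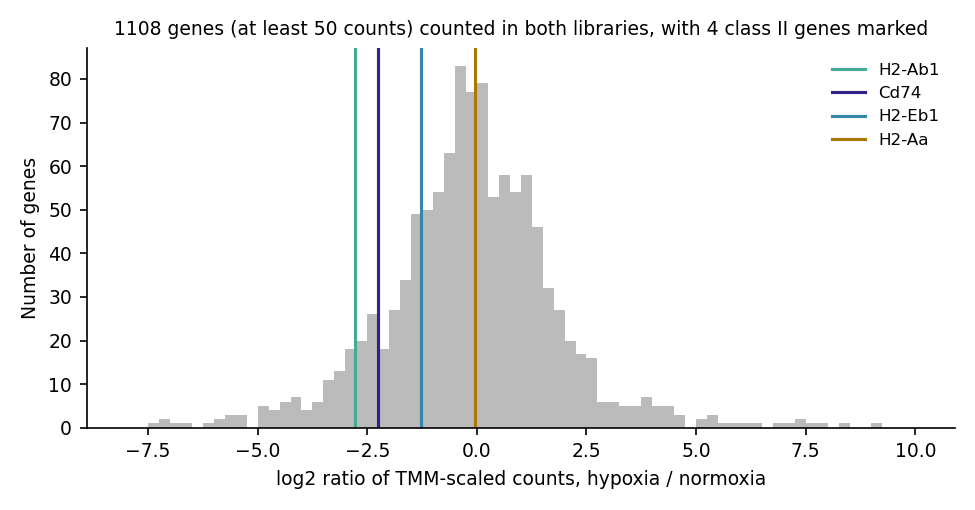
Histogram of the log2 ratio of TMM-scaled counts, hypoxia over normoxia, for the 1108 genes with at least 50 counts that were counted in both libraries (y axis, number of genes). Vertical lines mark H2-Ab1 at −2.78, Cd74 at −2.26, H2-Eb1 at −1.27 and H2-Aa at −0.04, the last near the middle of the distribution.

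The make-up of the class II counts differed between the libraries on reads. In normoxia Cd74 held 51.9% of them (50.8 to 53.0), H2-Eb1 16.7%, H2-Ab1 13.8%, H2-Aa 12.2% and H2-DMa 5.31%. In hypoxia H2-Aa held 37.5% (32.1 to 43.3), Cd74 34.2% (28.9 to 39.9), H2-Eb1 21.9% and H2-Ab1 6.31%. The intervals of H2-Aa and Cd74 in hypoxia overlap, and per length Cd74 led in both libraries, with 53.3% and 36.4% of the summed TPM. Cd74 TPM was 5.68 times that of H2-Aa in normoxia (2538 and 447 TPM) and 1.21 times in hypoxia (707 and 584 TPM). On estimated molecules the share of Cd74 was 34.6% to 68.9% in normoxia and 6.63% to 73.6% in hypoxia, and the intervals of each other gene overlap as well.

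The order of per-length levels in normoxia was Cd74, H2-Eb1 (971 TPM), H2-Ab1, H2-Aa and H2-DMa. In hypoxia it was Cd74, H2-Aa, H2-Eb1 (539.6 TPM) and H2-Ab1, and the first 3 lay within 707 and 539.6 TPM. With 2.64, 2.90 and 1.69 estimated molecules, those 3 levels cannot be ordered beyond counting error.

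**Figure D4:**
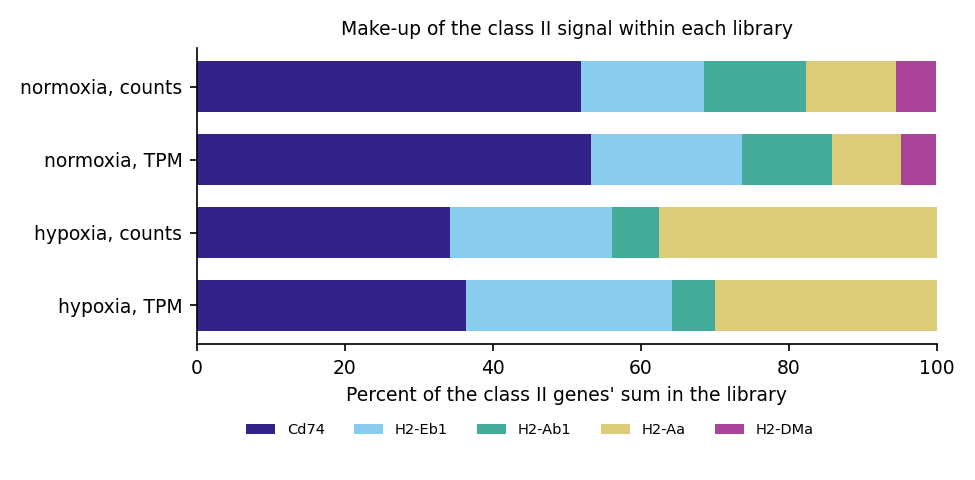
Percent of the class II genes' summed counts and summed TPM (x axis) held by each gene in the normoxia and the hypoxia library. H2-Aa takes 12.2% of counts in normoxia and 37.5% in hypoxia, and H2-DMa appears in normoxia only.

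Genes that switch on class II were counted in part. Of 20 genes of class II transcription, the normoxia library counted 9 and the hypoxia library 6, with 4 shared, and of the 9 with the minimum, 1 was higher, 6 were lower and 2 met neither, beside 11.9% higher and 75.7% lower over all measured genes. Of the RFX subunits, Rfx5 and Rfxank had 0 counts in both libraries and Rfxap had 201 and 0. Of the NF-Y subunits, Nfyb had 330 and 31 counts with a TMM ratio of 0.806 (0.539 to 1.17), Nfyc had 190 and 0, and Nfya had 0 in both. The myeloid transcription factor gene Spi1 had 1291 and 32 counts, a ratio of 0.213 (0.145 to 0.302). The interferon regulatory factor gene Irf8 was the higher one: it had 168 and 40 counts, a 2.04-fold difference (1.41 to 2.90 on reads), while its interval on molecules ran from 0.0237 to 476.

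Along the interferon gamma pathway the receptor chain gene Ifngr1 had 650 and 58 counts, a ratio of 0.765 (0.575 to 1.00). The kinase genes Jak1 and Jak2 had 526 and 349 counts in the normoxia library and, like Irf1 with 542, none in the other. The interferon gene Ifng itself had 0 counts in both.

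Most endosomal genes that process antigen and the invariant chain were counted in normoxia, and fewer in hypoxia. Of 14 such genes 13 were counted in normoxia and 8 in hypoxia. Of the 13 with the minimum, 11 were lower in hypoxia (5 at 0), 0 were higher and 2 met neither, and the median log2 ratio was −3.58. With total counts 9 were lower and 4 met neither. Over all measured genes 75.7% were lower with TMM (71.5% with total counts), with a median of −7.51. That median is set by the prior count at genes with 0 in hypoxia. Taking each 0 as 3 counts gave medians of −3.42 for this list and −2.75 for all measured genes, so the order of the 2 medians turned. Ctss, the cathepsin that trims the invariant chain, had 4825 and 168 counts, or 2994 and 1198 TPM, with a ratio of 0.299 (0.255 to 0.348 on reads, 0.0791 to 0.859 on molecules). With total counts its ratio was 0.521 (0.444 to 0.608 on reads), and the interval on molecules then included 1. The cystatin gene Cst3, an inhibitor of cathepsins, had 3252 and 97 counts, a ratio of 0.256 (0.207 to 0.313). Ctsd with 2589 and 157 counts and Lamp2 with 951 and 88 met neither, at ratios of 0.520 and 0.794. The cathepsin gene Ctsb had 5770 and 81 counts, Ctsh 1763 and 68, Ctsz 1418 and 13, and Lamp1, a lysosomal membrane gene, 1962 and 19. Lgmn, the asparaginyl endopeptidase gene, had 1511 and 0 counts, and Ifi30, the lysosomal thiol reductase gene, had 469 and 0. As a sum, the list held 1.19% of counts in normoxia and 0.476% in hypoxia, a TMM ratio of 0.230 (0.131 to 0.381 on molecules) that was 0.401 (0.228 to 0.665 on molecules) with total counts.

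Genes of class II turnover and costimulation were not counted in hypoxia. Of 12 names 10 were in the table, and 4 were counted in normoxia and 0 in hypoxia, with 1616 counts in all, beside 68.4% of all measured genes at 0 in hypoxia. March8 and March1, the ubiquitin ligases that drive class II off the surface, had 720 and 642 counts in normoxia, Cd40 had 196 and Icosl 58. The costimulatory genes Cd80 and Cd86 and the class II stabilising gene Cd83 had 0 in both libraries. On estimated molecules the 4 genes came to 7.06 in normoxia, and the interval of their TMM ratio ran from 0 to 1.00. The remaining class II chain genes in the table, H2-Oa, H2-Ob and H2-Eb2, had 0 counts in both.

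Class I molecules, which show peptides from the cell's own proteins, are the closest family. The heavy chain genes H2-K1 (1795 and 114 counts) and H2-D1 (3184 and 146) and the light chain gene B2m (5531 and 269) had TMM ratios of 0.545, 0.393 and 0.417. With total counts the ratios were 0.951, 0.686 and 0.728, and that of H2-K1 was 1.04 with housekeeping scaling. Of the reads of these 3 genes and the 4 class II genes counted in both libraries, class II held 42.4% in normoxia (41.7 to 43.1) and 36.3% in hypoxia (33.0 to 39.6). On estimated molecules the intervals were 31.4% to 54.0% and 16.8% to 59.7%, so a difference between the families was not detectable. Psmb8, an immunoproteasome subunit gene in the class II region, had 234 and 136 counts and was 4.98-fold higher (4.00 to 6.18 on reads), although on molecules the interval was 0.456 to 237.

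Lists of cell type markers differed between the libraries in unlike ways. The 15 macrophage markers summed to 11029 counts in normoxia and 46 in hypoxia, or 0.508% and 0.0317% of counts. The counted ones in hypoxia were Itgam with 40, against 117 in normoxia, and Cx3cr1 with 6, against 1170. With TMM on reads Itgam was higher in hypoxia, and 11 of the 12 markers with the minimum were lower. The 4 class II genes counted in both libraries came to 0.701 counts per macrophage marker count in normoxia and 6.54 in hypoxia. The 46 macrophage marker counts in hypoxia come to 1.18 estimated molecules. The 4 class II genes, unlike the markers, were picked for being counted in hypoxia. These 2 values therefore cannot show whether class II changed relative to macrophage RNA. Monocyte markers held 0.654% and 0.643% of counts, with Chil3 and Plac8 highest in both libraries (3223 and 443, and 2824 and 275 counts) and Ccr2 among 4 at 0 in hypoxia. Neutrophil markers held 1.83% and 10.3% of counts, led by S100a9 and S100a8. Neutrophils at rest carry little class II. Erythroid markers held 9.77% and 7.94% of counts. Of 16 markers of ganglion cells (neurons and glia) 2 were counted in normoxia and 3 in hypoxia, with 0.00599% and 0.140% of counts, a ratio of 23.4 with total counts (1.81 to 12437 on molecules) and 13.4 with TMM (1.04 to 7126). The glial and neuronal genes Mbp (58) and Isl1 (60) were counted in hypoxia only.

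Of 16 B cell markers 6 were counted in normoxia and 2 in hypoxia, with sums of 1638 and 64 counts. Igkc (543) and Cd79a (452) led in normoxia and were at 0 in hypoxia, where Ebf1 (55) and Ly6d (9) were counted, and Ms4a1 was at 0 in both. Of 14 dendritic cell markers 4 were counted in normoxia and 1 in hypoxia, with sums of 535 and 32. Siglech had 202 and 0 counts and Bst2, also an interferon-induced gene, had 142 and 32, and the defining genes Zbtb46, Xcr1, Clec9a and Itgax were at 0 in both libraries. Of 12 T and NK cell markers Cd4 alone was counted, with 350 and 0. The part of each of these cell types in the class II counts was not tested.

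**Figure D5:**
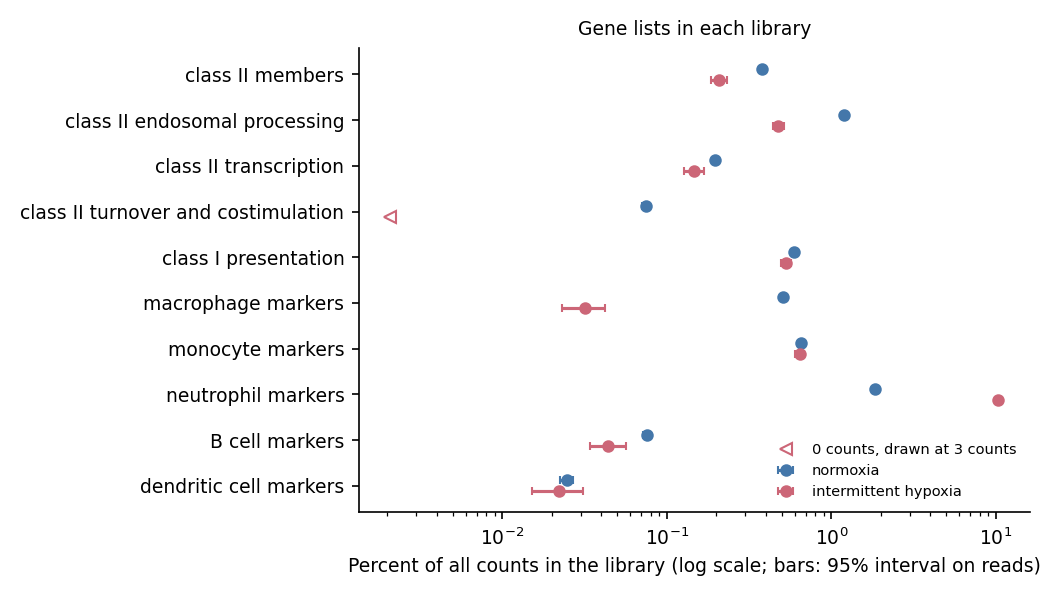
Percent of all counts (log axis) held by the class II genes, by lists of related genes and by cell type markers in the normoxia and the hypoxia library, with 95% Clopper-Pearson intervals on reads; a list at 0 counts is drawn at 3 counts. The class II genes lie at 0.377% and 0.208%, the macrophage markers at 0.508% and 0.0317%, and the neutrophil markers at 1.83% and 10.3%.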

How the data were processed

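RNA-seq was made from 1 normoxia and 1 intermittent hypoxia library. The submitters' processing notes list STAR 2.5.2b, bcl2fastq 2.20 and, from Subread 1.5.2, featureCounts. Build, annotation, strand setting and duplicate handling: not given in the sources used here. Raw counts per gene (whole numbers) were deposited by the authors without normalization. The authors also deposited TPM values, with zeros at the same genes (100%), used here only to compare genes per length. No molecular identifiers are mentioned, so intervals and limits cover counting error only.

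Scaling used edgeR 4.0.16 (TMM, factors 0.757 and 1.32), DESeq2 1.42.0 size factors, total counts or the sum of 16 housekeeping genes. Genes with at least 50 counts over both libraries were called at a 2-fold ratio whose exact 95% interval (Clopper-Pearson, conditional binomial) excluded 1. Log2 ratios used a prior count of 0.5, and a count of 0 was taken to allow 3 counts. Reads per molecule were the median count of genes with at least 10 counts in 1 library and 0 in the other. This assumes that such genes mostly stem from 1 molecule, which was not tested. No p-value was computed. The code was tested on simulated data with independent reads and a smaller difference in depth than here. That test therefore does not cover calls from reads that are not independent, as in these libraries. The 8 genes, lists and rules were chosen with earlier results of these data known. Named were all 8 genes, of each related list the 3 genes with most counts per library and those counted in both, of each marker list the 2 with most counts per library, and the 5 genes nearest to Cd74. Others (among them Rfxap, Nfyc, Jak1, Jak2, Lgmn, Ifi30, Cd40, Icosl, Brd2, Psmb8, Mbp, Isl1 and genes at 0) were named after their values were seen. Some genes of these lists are not reported here by name.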

Additional observations from a re-analysis of the deposited data

How the results depend on the processing

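No class II gene was higher by the 2-fold rule under any of the 8 alternatives tried. The number that was lower, 4, was 3 or 4 in the other settings and 1 with intervals on estimated molecules. The ratio of the class II share, 0.316 with TMM, was 0.551 with total counts, 0.601 with housekeeping scaling, 0.432 without Cd74 and, as an alternative added after seeing the data, 0.224 without H2-Aa, so it stayed below 1 in each. Of all genes, 3192 were lower and 500 higher. These counts became 55 and 8 on estimated molecules, 2086 and 153 with a minimum of 200 counts, and 309 and 276 among genes counted in both libraries, where fewer genes were tested. With no minimum, 1147 were higher. H2-Aa had log2 ratios from −0.04 with TMM to 0.89 with housekeeping scaling. On the given strand alone, 3 windows held the X-like box. The depth of molecules in the hypoxia library limits every ratio above. No paired analysis was possible because there is 1 library per group.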

Other observations

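The stretch of chromosome 17 from 34119541 to 34316674 (GRCm38) that spans the class II cluster holds 16 genes of the table, and 8 of them had counts in normoxia and 5 in hypoxia, 4 of these shared. Besides the class II genes it carries class I processing genes, and these were counted in different libraries. Psmb9, an immunoproteasome subunit gene, had 386 counts in normoxia and 0 in hypoxia, whereas its neighbour Tap1, a peptide transporter gene, had 0 and 35. Tap2, the partner of Tap1, had 0 in both. Psmb8, with 234 and 136 counts, was the only gene of the stretch counted in both libraries that is no class II gene. These genes were picked by position, after their values were seen.

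The class II genes counted in both libraries came to 1.60 counts per count of Ctss in normoxia and 1.79 in hypoxia, and to 0.194 and 0.0201 counts per neutrophil marker count.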
